A study of Homo sapiens with 8 samples.

Results

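The genes LTBP1, TGFB2 and SMOC1 were described here through the 11 start sites of nascent transcription that lay in them, out of 1249 sites deposited for IMR90 cells, a human fetal lung fibroblast line. The 3 genes were chosen by the deposited folds of their sites, which were already known, and a site belonged to a gene when its midpoint fell in the gene's GENCODE 44 span or within 1 kb upstream of it. All 11 sites came from the 849 sites listed for senescent and not proliferating cells (called senescent-only here), and 0 from the 400 sites of the opposite list (proliferating-only). Membership in the senescent-only list is therefore what chose the sites, and no test was made of it.

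LTBP1 encodes a latent TGF-β binding protein, which ties the inactive TGF-β complex to fibrillin microfibrils of the extracellular matrix. TGFB2 encodes TGF-β2, a ligand secreted as a latent precursor that signals through receptor kinases and SMAD transcription factors. SMOC1 encodes a secreted, calcium-binding matricellular protein of the SPARC family, known in Xenopus as an antagonist of BMP signalling. In fibroblasts TGF-β drives matrix synthesis, and in senescent cells ligands of this family are among the secreted factors that act on neighbouring cells.

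The samples were cultures of IMR90 cells grown at 3% oxygen, and the labels name no transgene or drug in any group. Senescent cells had reached the end of their replicative life by serial passage, at population doubling 76 (PRO-cap replicate 1 and the PRO-seq library) or 67 (PRO-cap replicates A and B). Proliferating cells were at population doubling 23 (PRO-cap replicate 1), 26 (PRO-cap replicates A and B) or 20 (the PRO-seq library). All 8 samples came from 1 cell line, and whether replicates were separate cultures is not stated. PRO-cap isolates the capped 5′ ends of RNAs that engaged polymerases are still making, so each read marks a place where transcription began; PRO-seq maps the polymerases themselves and was not used here. The lists hold no value per library and do not say which libraries entered, so the values below carry no spread over replicates. They hold no expression levels either, and fibroblast markers could not be checked.

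Each senescent-only site carries a fold computed by the authors, read here as senescent over proliferating because the list is named so. Each fold of both lists could be turned back into whole reads of both states (849 of 849 and 400 of 400 folds, tolerance 1e-06 of a read, each with 1 solution). A read was worth 32.8 in senescent and 39.4 in proliferating cells, and the authors had added 1 to both scaled values. Read intervals below are exact 95% intervals that cover counting error only, and where proliferating cells had 0 reads a fold was computed against a floor of 3 reads. That floor carries no error of the senescent reads, so the lower limit of the exact 95% interval of the ratio, which does, is given beside it.

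The sequences that carry the main patterns are shown first. The stretch between the centres of the 2 strongest LTBP1 sites, chr2:33500878-33501058 on the + strand of hg19, has 2 AP-1 motifs in capitals.

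LTBP1 site 2 to site 3: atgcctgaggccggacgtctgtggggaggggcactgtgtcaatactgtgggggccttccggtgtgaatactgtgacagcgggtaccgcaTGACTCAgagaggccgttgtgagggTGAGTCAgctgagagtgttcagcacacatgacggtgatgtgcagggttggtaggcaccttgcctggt

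The next stretches run between the centres of 2 close pairs of SMOC1 sites, chr14:70464666-70464891 and chr14:70467424-70467699 on the + strand. Capitals mark the pyrimidine-purine step at each centre, where RNA polymerase II tends to begin a transcript. The left start of each pair was read on the − strand, so its step is seen here as the reverse complement (TG for CA). A TA step reads the same on both strands.

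SMOC1 site 2 to site 3: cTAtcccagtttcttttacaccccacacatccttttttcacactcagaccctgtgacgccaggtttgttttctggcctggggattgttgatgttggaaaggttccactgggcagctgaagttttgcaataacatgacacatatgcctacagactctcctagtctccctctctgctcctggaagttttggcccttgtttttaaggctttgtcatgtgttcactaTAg

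SMOC1 site 5 to site 6: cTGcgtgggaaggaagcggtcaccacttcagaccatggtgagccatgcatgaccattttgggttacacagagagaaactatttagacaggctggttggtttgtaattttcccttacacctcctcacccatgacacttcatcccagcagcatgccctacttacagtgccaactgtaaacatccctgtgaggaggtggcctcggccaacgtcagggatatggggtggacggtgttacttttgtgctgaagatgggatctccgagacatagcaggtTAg

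The TGFB2 sites are the weakest of the 3 genes by reads and are shown for their contrast in sequence. Site 1, chr1:218595094-218595243, had no strand read and is printed on the + strand, with a TATA match in capitals. Site 2, chr1:218599133-218599282, is printed on the − strand with its central step in capitals.

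TGFB2 site 1: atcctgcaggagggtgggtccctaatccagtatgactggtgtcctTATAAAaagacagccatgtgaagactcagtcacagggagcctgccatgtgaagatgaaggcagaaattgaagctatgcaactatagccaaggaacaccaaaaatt

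TGFB2 site 2: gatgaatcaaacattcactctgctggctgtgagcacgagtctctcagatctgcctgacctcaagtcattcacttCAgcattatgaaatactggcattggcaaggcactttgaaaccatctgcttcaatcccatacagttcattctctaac

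SMOC1 site 4, chr14:70465857-70466006, is the SMOC1 site with the most reads and stands alone. It is printed on the − strand, again with the central step in capitals.

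SMOC1 site 4: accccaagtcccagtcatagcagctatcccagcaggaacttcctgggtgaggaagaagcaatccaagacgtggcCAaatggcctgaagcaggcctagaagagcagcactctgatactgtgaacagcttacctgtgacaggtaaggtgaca

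LTBP1 (ENSG00000049323) held the site with the most reads of the 3 genes. Its site 3 had 348 reads (312.4 to 386.6) in senescent cells and 0 in proliferating cells. LTBP1 site 2, whose centre lies 178 bases before that of site 3, had 254 reads (223.7 to 287.2) in senescent cells against 0 in proliferating ones. LTBP1 site 1, 3723 bases before site 2, had 34 reads (23.5 to 47.5) in senescent and 0 in proliferating cells. The 3 sites thus differed widely in reads within 4.05 kb of a gene of 452.6 kb, and none had a read in proliferating cells. Against the floor of 3 reads, the level in senescent cells was 96.7-fold, 70.6-fold and 9.45-fold that of proliferating cells at sites 3, 2 and 1, and the exact lower limits of the ratio were 78.2, 57.0 and 7.27. The authors' deposited table gives folds of 11420, 8335 and 1117 for them, which at 0 reads are the scaled senescent value plus 1 and rest on the added 1.

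The ligand gene TGFB2 (ENSG00000092969) held 2 weaker sites. Site 1 had 41 reads (29.4 to 55.6) in senescent and 0 in proliferating cells, and site 2, 4039 bases further on, had 17 reads (9.90 to 27.2) in senescent and 0 in proliferating cells. Against the floor of 3 reads the folds of sites 1 and 2 were 11.4 and 4.72, with exact lower limits of 8.85 and 3.44, and the authors' deposited table lists 1346 and 559. Site 1 lay just above and site 2 below the median of 32 reads of all senescent-only sites.

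SMOC1 (ENSG00000198732) held 6 sites within 4.67 kb. In order along the gene they had 16, 55, 36, 294, 156 and 101 reads in senescent cells and 0, 2, 0, 3, 0 and 1 in proliferating cells. SMOC1 was the only gene of the 3 whose listed sites had reads in both states. They had 658 in senescent cells against 6 in proliferating cells, a scaled ratio of 91.4 (41.8 to 250.0). The LTBP1 sites had 636 reads in senescent against 0 in proliferating cells (177-fold against the floor, exact lower limit 143.3). The TGFB2 sites had 58 in senescent against 0 in proliferating cells (16.1-fold against the floor, exact lower limit 12.7). Reads of either state elsewhere in these genes are not known here. Summed over the 150-base windows of each gene, the intervals of the senescent reads of SMOC1 (608.7 to 710.3, 6 windows) and LTBP1 (587.5 to 687.4, 3 windows) overlap, and that of TGFB2 (44.04 to 74.98, 2 windows) lies below both.

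**Figure D1:**
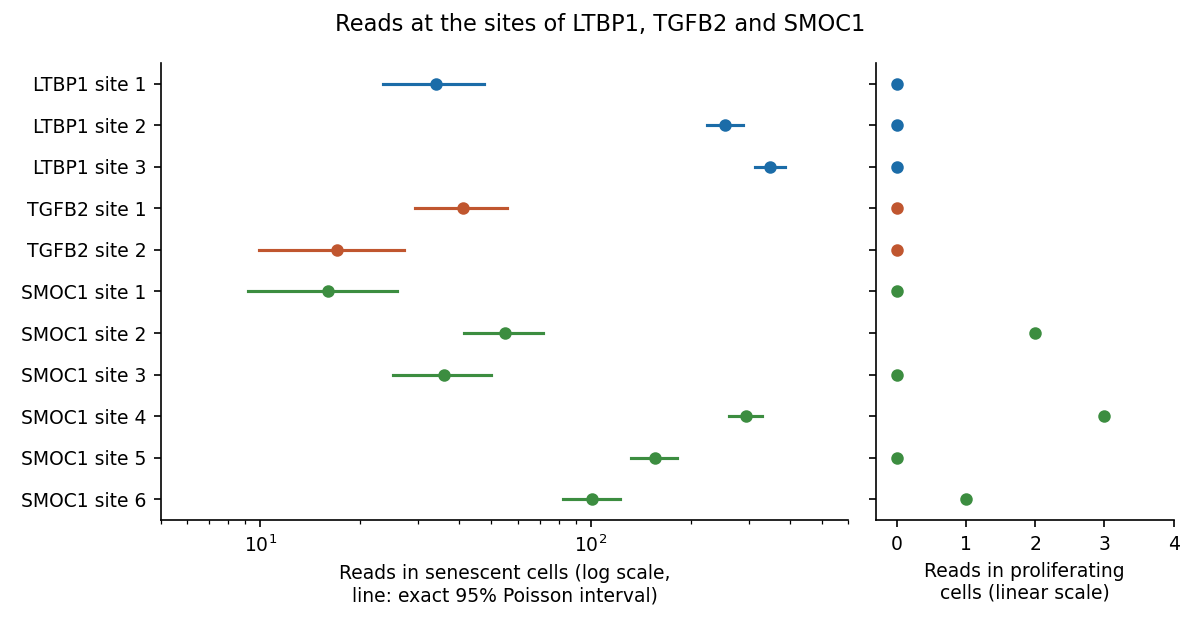
Reads at each of the 11 sites in senescent cells (left, log axis, points with exact 95% Poisson intervals) and in proliferating cells (right, linear axis). LTBP1 sites 2 and 3 and SMOC1 site 4 stand above 250 reads in senescent cells, and proliferating cells had at most 3 reads at any site.

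SMOC1 site 4 shows what the deposited fold leaves out. Its 294 senescent reads stood against 3 proliferating reads, and its scaled ratio was 81.7 (27.7 to 398). By reads it ranked 16 of the senescent-only sites, but by fold 490, since the authors' deposited table gives it 81.0. LTBP1 site 2, with fewer senescent reads (254), ranked 25 by reads and 3 by fold. The exact lower limit of the LTBP1 ratio, 57.0, lies inside the interval of the SMOC1 ratio, so the intervals of the 2 sites overlap. LTBP1 site 3, first of the whole list by fold, ranked 13 by reads.

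The remaining SMOC1 sites with reads in both states were sites 2 and 6. Site 2 had 55 reads in senescent against 2 in proliferating cells, a scaled ratio of 22.9 (6.05 to 194), and is the member nearest to the fold of about 10 at which the senescent-only list begins (22.6 in the authors' deposited table, against a lowest of 10.2 in the list). Site 6 had 101 reads in senescent against 1 in proliferating cells, with a ratio of 84.2 (14.8 to 3357). Over the 3 genes, 8 of 11 sites had no read in proliferating cells, where 55.4% of all senescent-only sites had none. The 11 sites had a median of 55 reads, and 9 of them lay above the list's median of 32. The genes were chosen by fold, which rises with senescent reads and is highest without proliferating reads. These comparisons with the list therefore describe that choice and are no finding about the genes. No site of either list lay between these genes' ends and 765.3 kb beyond them (SMOC1, a senescent-only site upstream), 2124 kb (TGFB2) or 4777 kb (LTBP1, both proliferating-only).

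All 3 genes lie on the + strand of their chromosomes, and all 11 sites fell late in the gene, between 71.8% and 82.4% of its length. LTBP1 spans 33172020 to 33624576 of chromosome 2, and its sites lay 325.1, 328.9 and 329.0 kb from the 5′ end. In the transcript taken as reference (ENST00000404816), which has 34 exons, site 1 lay in intron 15, the centre of site 2 in exon 18 (33500868 to 33500990) and site 3 in intron 18, 67 bases past that exon. Of the 1721 codons of this transcript, 997 lie before site 3 and 723 after it. Sites 2 and 3 also lay in an unnamed lncRNA gene on the opposite strand (ENSG00000285577, 33499532 to 33506328), whose own start is 5271 bases from site 3.

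The start annotated nearest to LTBP1 sites 2 and 3 does not mark a known 5′ end. The transcript ENST00000415140 begins at 33500976, which is 97 bases past the centre of site 2 and 81 before that of site 3. Its first exon of 15 bases ends where exon 18 of the reference transcript ends, its coding sequence runs from its first base, and the annotation tags its 5′ end as not found. Among transcripts of the annotation's basic set, the nearest start to site 3 is 5271 bases away, that of the lncRNA on the opposite strand. Within 1 kb of any annotated start lay 2 of the 11 sites, both through this fragment, where 8.72% of all senescent-only sites lay so.

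TGFB2 spans 218518678 to 218617961 of chromosome 1, and both its sites lay in intron 2 of the 7-exon transcript ENST00000366930, an intron of 28.7 kb. They lay 16.5 and 20.5 kb past exon 2, with 170 of 414 codons before them and 244 after. The nearest annotated start was 12.3 kb and 8.26 kb further on. SMOC1 spans 70320848 to 70499083 of chromosome 14, and its 6 sites lay in intron 7 of the 12-exon transcript ENST00000361956, between 1.98 and 6.50 kb past exon 7. That point of the gene has 221 of 435 codons before it and 213 after. The nearest annotated start, of a transcript with a retained intron, lay 2.22 to 6.74 kb before these sites.

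**Figure D2:**
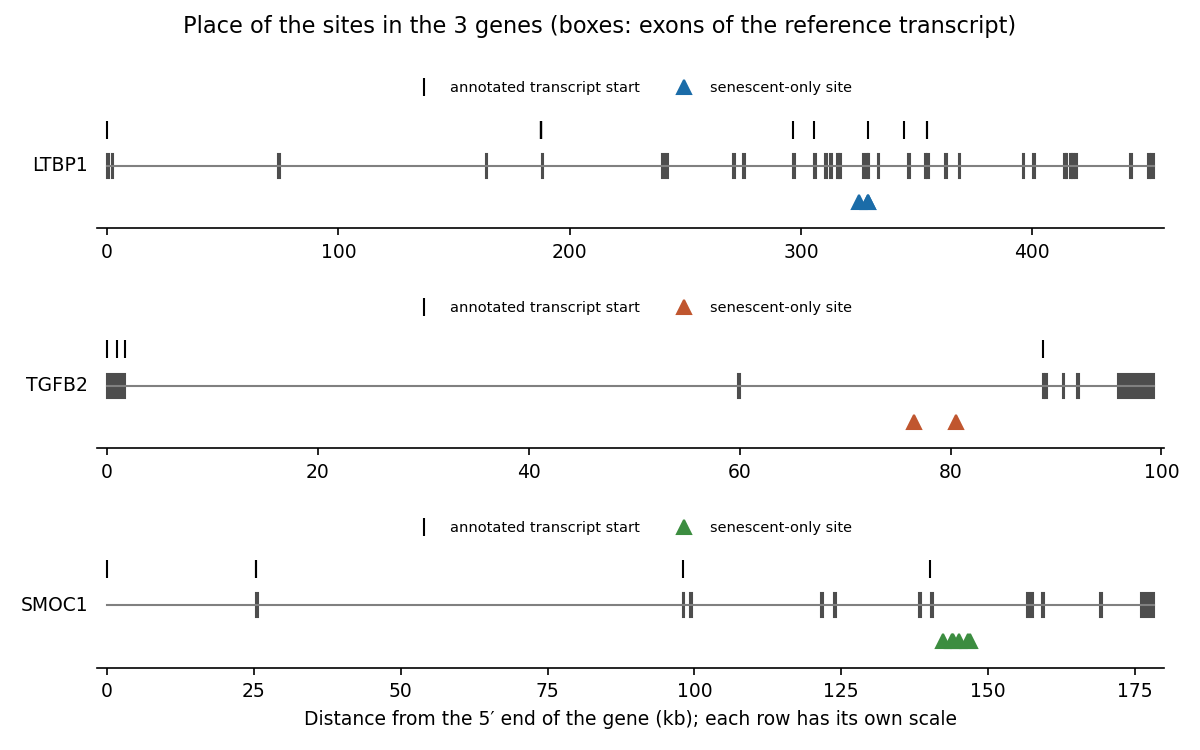
The 3 genes drawn from their 5′ ends (kb, each row on its own scale), with exons of the reference transcripts as boxes, annotated transcript starts as ticks above and senescent-only sites as triangles below. The sites of each gene stand in 1 cluster toward its 3′ end, within 4.05 kb in LTBP1, 4.19 kb in TGFB2 and 4.67 kb in SMOC1.

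The strand of the starts is not given, since all 1249 sites have + in the strand column. A reading of it was taken from the sequence. A start of transcription tends to have a pyrimidine before it and a purine at its first base. Among the senescent-only sites, 86.2% (83.7 to 88.4) had such a step with its purine on the centre base along 1 of the strands. Positions 10 to 50 bases to either side gave 39.3% to 48.3%. The most frequent step, CA, stood there at 50.5% of sites, where the flanks gave 12.7% to 20.1%. Proliferating-only sites behaved likewise, with 86% at the centre and 36.25% to 47% in the flanks. Most sites thus had a start-like step at their centre, and a site was read as + or − by the strand on which the centre base is the purine of the step. The same step is also pyrimidine-purine on the other strand, so each call rests on the centre lying exactly on the start base. The error of these calls was not measured.

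**Figure D3:**
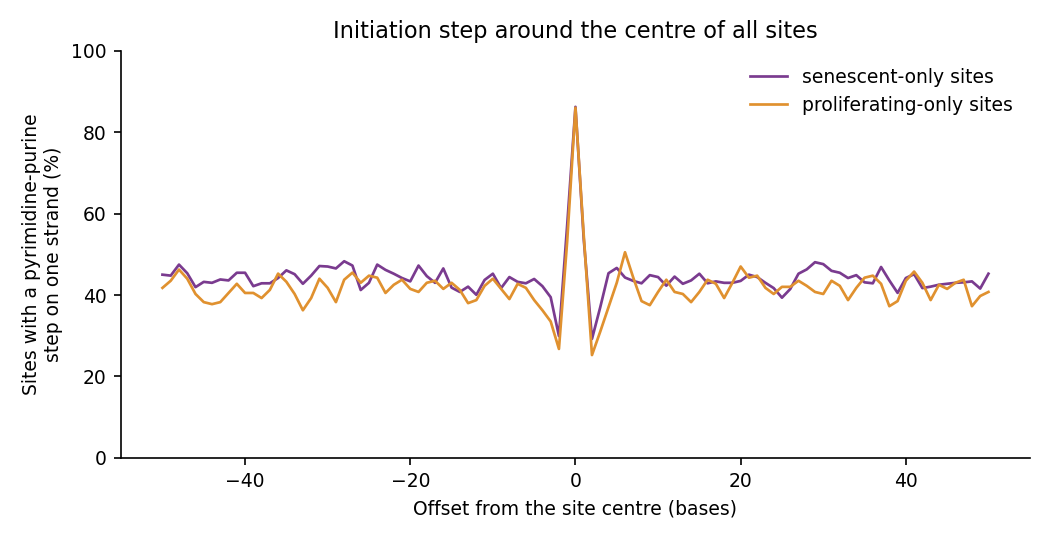
Share of sites (%) with a pyrimidine-purine step whose purine falls on the given base along 1 of the strands, by offset from the site centre in bases. Senescent-only and proliferating-only sites are drawn separately. The lines stand at 86.2% and 86% at offset 0 and between 36.25% and 48.3% at 10 to 50 bases from it.

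Of the 11 sites, 9 had a readable strand. Antisense to the gene were 6 of them, LTBP1 sites 1 and 2, TGFB2 site 2 and SMOC1 sites 2, 4 and 5, and in the sense direction 3, SMOC1 sites 1, 3 and 6. Over the list, 48.7% of senescent-only sites with 1 coding host gene were read antisense to it (310 of 636). LTBP1 site 3 had 2 purines at its centre and TGFB2 site 1 had 2 pyrimidines, so neither was read. The step was CA at 5 of all 11 sites, where 50.5% of all senescent-only sites had it. The 3 sense calls rest on TG (SMOC1 site 1, which is CA on the other strand) and on TA (SMOC1 sites 3 and 6). The antisense call of SMOC1 site 2 also rests on TA.

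Close neighbours of the list were mostly divergent, with the left start read as − and the right as +. Among neighbouring senescent-only sites with centres at most 300 bases apart and both strands read, 108 of 126 were divergent (85.7%, 78.5 to 90.8), 12 convergent and 6 in tandem. Beyond 300 and up to 10000 bases apart, 19 of 126 were divergent (15.1%, 9.87 to 22.4). Proliferating-only sites gave 42 of 70 (60%) and 7 of 50 (14%). The call of a strand used only the bases at a centre and no read. Spacing and orientation are still not separate at the closest spacings. Centres of pairs lay as close as 1 base in both lists, and 2 centres on 1 step can only read as divergent. At more than 200 and up to 300 bases, where windows do not overlap, 25 of 30 senescent-only and 14 of 29 proliferating-only neighbours were divergent. Senescent-only tandem neighbours were 6 of 126 within 300 bases and 56 of 126 beyond. Whether the unknown site caller sets this was not tested.

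SMOC1 held 2 pairs read as divergent in this way. Sites 2 and 3, 223 bases apart, had TA steps at both centres, with 55 reads in the left window and 36 in the right, in senescent cells. Sites 5 and 6, 273 bases apart, had CA and TA steps, with 156 reads in the left and 101 in the right window. TA is its own reverse complement, so the calls of sites 2, 3 and 6 rest only on which base of the step is at the centre. The right window took 39.6% (29.5 to 50.4) and 39.3% (33.3 to 45.6) of the reads of its pair, so the left window was higher beyond counting error for sites 5 and 6, and the interval for sites 2 and 3 includes equal reads. These SMOC1 pairs hold 4 of the 11 sites, where 25.4% of all senescent-only sites were in such a pair. By summed reads, sites 2 and 3 (91) ranked 64 and sites 5 and 6 (257) ranked 17 of the 108 pairs of the list.

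The pair of LTBP1 sites 2 and 3 has the same geometry but an incomplete reading. Site 2 reads as −, with a CA step, and site 3, 178 bases to its right, has a purine at its centre but no pyrimidine before it. Reading the strand from the centre base alone makes it + and the pair divergent, which gives 3 pairs in place of 2. The 254 and 348 reads of the left and right windows come from windows that do not overlap. SMOC1 site 4, with 294 reads, read as − and had no listed partner within 1000 bases.

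**Figure D4:**
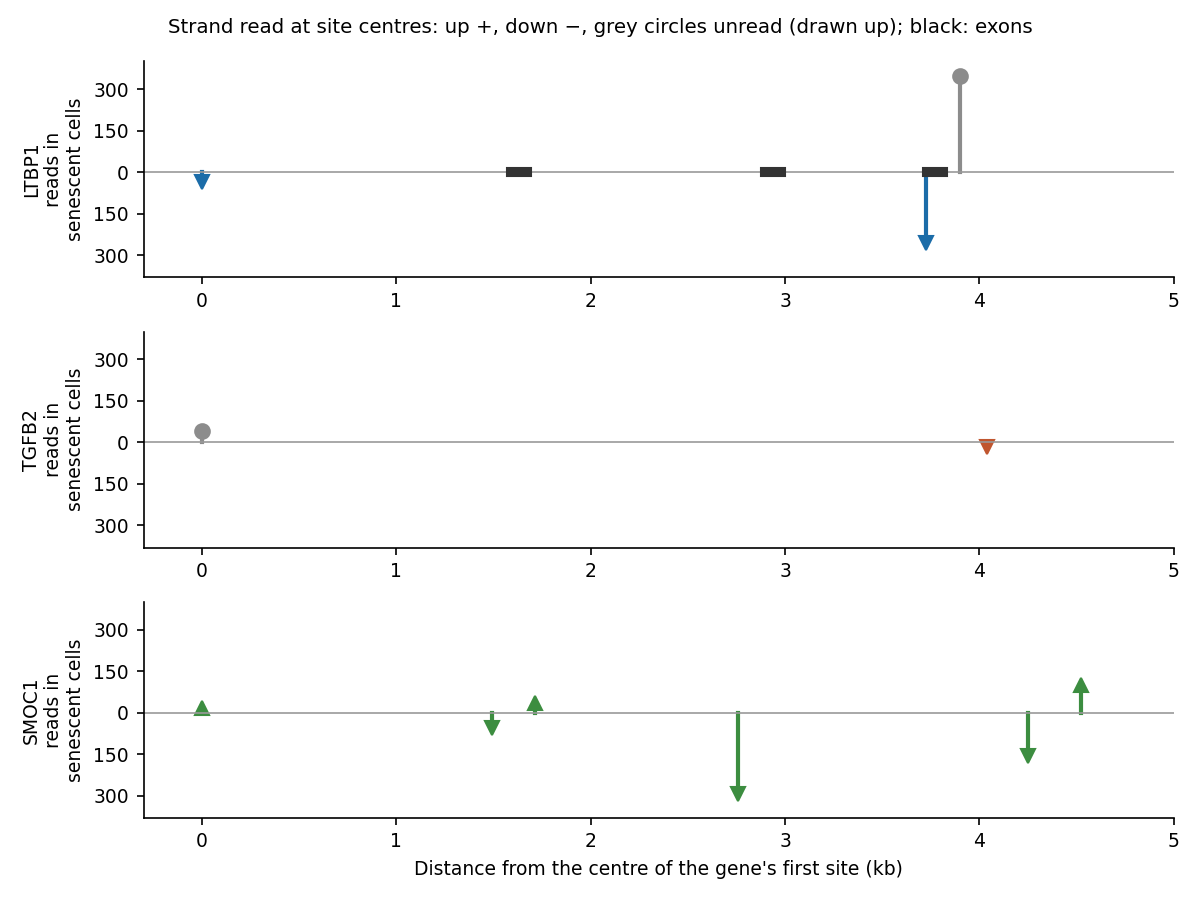
Reads in senescent cells at the sites of each gene by distance from the gene's first site (kb), drawn upward for starts read as +, downward for − and as grey circles where no strand was read; black boxes are exons. SMOC1 shows 2 pairs with − on the left and + on the right, and LTBP1 site 2 points down beside the unread site 3.

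**Figure D5:**
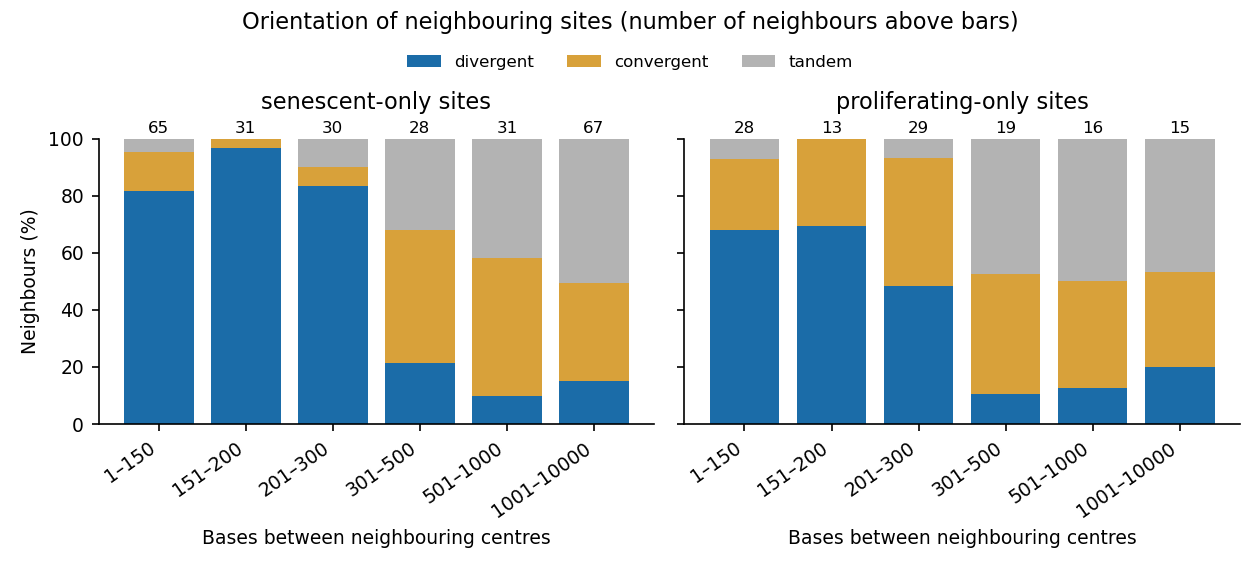
Orientation of neighbouring sites (% of neighbours with both strands read, their number above each bar) by the bases between centres, for senescent-only and proliferating-only sites. Divergent neighbours are the largest class in each senescent-only bar up to 300 bases and stand at 21.4% in the next bar, up to 500 bases.

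Motifs were searched in the 200 bases centred on each site, on both strands. AP-1, the motif of FOS and JUN factors (TGACTCA or TGAGTCA), was present at 3 of 11 sites, LTBP1 sites 2 and 3 and SMOC1 site 1, where 18.4% of senescent-only sites had it. LTBP1 sites 2 and 3 share the match at 33500967 to 33500973, inside exon 18, and site 3 has a further match at 33500992 to 33500998, in the first bases of intron 18. Both stand between the 2 centres, 88 and 113 bases after that of site 2. The match of SMOC1 site 1 was centred at -60, counted in bases from the site centre along the strand read.

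The SMAD box CAGAC was found at 4 of 11 sites (LTBP1 site 2 and SMOC1 sites 2, 3 and 5), against 45.9% of the list. TATAAA or TATATA was found only at TGFB2 site 1, against 14.7% of the list. The match was centred at -26.5 from the site centre if counted along the + strand, but no strand was read there. The centre base alone, a pyrimidine, would make this site −, with the match downstream of the start. Whether the match lies upstream of a start is thus not known. The RUNX motif TGTGGT was found only at LTBP1 site 1 (19% of the list) and the TEAD motif GGAATG only at SMOC1 site 1 (17.8% of the list). GC content ran from 37% at LTBP1 site 1 to 57% at SMOC1 site 6, with a median of 46.5%, against a list median of 45.5%. CpG counts in the window ran from 0 at TGFB2 site 1 to 7 at LTBP1 site 2, with a median of 2, as in the list.

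The rest of the pathway was taken from a list of 73 genes, all of them matched in the annotation. Senescent-only sites lay in 6 of the 73 (8.22%), and in 3 of the 70 without the 3 genes described here (4.29%), where 2.04% of 20176 protein-coding genes held one. These pathway genes are longer, with a median of 56.3 kb against 27.2 kb, and genes that held a senescent-only site had a median of 170.3 kb; the part of length in these shares was not tested. Among the ligands, TGFB2 alone of 3 held a site. Among the 5 receptor genes, TGFBR3, the co-receptor betaglycan, held 3 senescent-only sites with up to 39 reads, and TGFBR2, the type II receptor kinase, held 1 with 18 reads. SMOC1 was the only 1 of the 4 genes of the SPARC family with a site. Among 10 genes that activate latent TGF-β, ITGB5, an integrin β subunit, held 1 with 10 reads.

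Proliferating-only sites lay in 4 other genes of the list (5.48%, against 1.09% of protein-coding genes). LTBP2, a paralog of LTBP1, held 2 with up to 37 reads in proliferating cells. ITGB8, whose integrin activates latent TGF-β, held 3 with up to 17 reads. SMAD3, which carries the signal to the nucleus, held 1 with 12 reads, and SMAD6, an inhibitory SMAD counted here among the inhibitors, held 2 with up to 77. No listed gene held sites of both lists. No site lay in the 14 genes listed as BMP ligands, receptors, SMADs and antagonists, which leave out SMAD6 and SMOC1, or in the 7 microfibril genes (0 in each).

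Genes most like each of the 3 were taken as those with the same number of senescent-only sites, no proliferating-only site and the nearest highest read count. For LTBP1, with 3 sites and 348 reads at most, these were NCOA7 (353 reads), ARHGAP24 (257) and RPS6KA2 (252), out of 37 such genes. For TGFB2, with 2 sites and 41 reads, they were TGOLN2 (41), SH3TC2 (43) and SRGAP1 (43), out of 88. For SMOC1, with 6 sites and 294 reads, they were AOPEP (375), FRMD6 (391) and PRKCE (468), out of 10. At least 2 senescent-only sites, as in all 3 genes, were held by 183 coding genes (0.907%).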

How the data were processed

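PRO-cap and PRO-seq libraries of senescent and proliferating IMR90 cells make up the 8 samples. The values used are the folds, a ratio of the states per 150-base site, in 2 lists deposited by the authors; the same lists were also deposited with 1 PRO-cap sample each, with identical content. The submitters' processing notes name cutadapt 2.10, BWA 0.7.10, HOMER, bedtools 2.27.1-65 and SAMtools 1.1. Their roles, the site caller, its thresholds and any pooling of libraries are not given in the sources used here. Total depth is unknown.

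From the folds, the value of 1 read and the whole reads of each state were computed (checked on simulated data). Places used GENCODE 44 lifted to GRCh37, which has hg19 coordinates. Intervals are exact Poisson or Clopper-Pearson for reads and Wilson for shares of sites, at 95%. No test was run, since the lists hold no values per library. Named are the 3 genes, pathway genes that hold a site, genes overlapping a site, and 3 genes most like each. Members and lists were chosen with earlier results of these data known, and the reading of strands was added after seeing the data. Python 3.11.15, pandas 2.3.3, scipy 1.17.1 and pysam 0.24.0 were used.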

Additional observations from a re-analysis of the deposited data

How the results depend on the processing

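No paired analysis was possible because neither list carries values of single libraries, and for the same reason no replicate could be left out. Of 11 sites, 3 regions remained after joining within 10 kb. LTBP1 site 3, 96.7-fold against the floor of 3 reads, had 291 with 1 read added to both states and 11420 as deposited, since at 0 reads the value is set by the added constant. Its rank of 13 by reads became 1 by fold and 12 among regions joined within 500 bases. Its distance of 81 bases to an annotated start became 5271 in the basic set. AP-1 was present at 5 of 11 sites with 500-base windows, where its share of all senescent-only sites was 31.7%. The pathway count of 6 became 3 without the 3 genes. The following were chosen after seeing the data: within 200 bases 0 divergent pairs of SMOC1 were left, and the divergent share of neighbours was 74.0% within 500 bases. Over all results and alternatives, 47 values kept to their reported value within the limit set for them, and 48 moved. Sites with under 20 reads, TGFB2 site 2 and SMOC1 site 1, had exact lower limits of 3.44 and 3.21 for their ratios. Causes were not tested beyond what the settings themselves fix.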

Other observations

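In divergent pairs of both lists the left window, centred on the start read as −, held more reads than the right window more often than the reverse. It was higher in 74 and lower in 31 of the 108 senescent-only pairs, and higher in 29 and lower in 11 of the 42 proliferating-only pairs. Both SMOC1 pairs follow the majority. Senescent-only sites read as − had a median of 38 reads and those read as + a median of 31, and proliferating-only sites had 26 and 20. The cause was not tested. The strand on which reads were counted was not given in the sources used here. Among neighbours whose centres lay within 20 bases and read as opposite strands, 5 of 8 senescent-only and 2 of 4 proliferating-only had equal reads. The windows of the SMOC1 and LTBP1 pairs do not overlap, so they share no position, but their reads cannot be assigned to a strand.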
